A study of Mus musculus with 16 samples.

Results

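The comparison set the loss of a core subunit of the transcriptional coactivator SAGA against the depletion of a subunit of the acetyltransferase module that SAGA shares with a second coactivator, ATAC. For every gene, the change in newly synthesized RNA in Supt7l-/- cells was taken against wild-type cells of the same sequencing project, and the change in AID-Tada3 cells was taken against wild-type cells of their own project. The difference between these 2 changes was then tested in 1 joint fit of the raw counts. The members are the autosomal genes (chromosomes 1 to 19) present in the count tables of both projects: 25434 genes, of 26410 on all chromosomes, and 14854 of the 25434 passed the filter on low counts and were tested.

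All libraries came from mouse E14 embryonic stem (ES) cells, grown in medium with serum, leukaemia inhibitory factor, the GSK3 inhibitor CHIR99021 (3 µM) and the MEK inhibitor PD0325901 (1 µM). Supt7l-/- is a knockout line, and AID-Tada3 carries an auxin-inducible degron on Tada3, by which auxin triggers breakdown of the tagged protein. Every line received auxin for 24 hours, the wild-type and Supt7l-/- cells included, so the knockout was lasting and the Tada3 depletion lasted a day. Newly synthesized RNA was labelled with 4-thiouridine for 15 minutes and purified. The analysis used 8 of the series' 16 libraries: 2 clones of each mutant and, in each project, 1 plain wild-type (WT) library and 1 of WT cells that overexpress Tir1 and BirA. Each mutant is thus 2 clones, and the 2 WT libraries of a project differ in that transgene. Whether the clones derive from the plain or the Tir1 and BirA line is not given in the sources used here. Tir1 is the plant auxin receptor on which degron systems rely, and BirA is a biotin ligase. In bulk samples, fewer cells of a kind and less RNA per cell cannot be told apart.

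SAGA and ATAC are large complexes that are recruited to promoters and acetylate histone tails through the enzyme Kat2a or its relative Kat2b. Tada3 (ADA3) belongs, with Sgf29 and a Tada2 protein, to the acetyltransferase module that both complexes carry, whereas Supt7l lies in the core of SAGA, which holds its other modules together, and is not part of ATAC. The comparison asks which genes answered to loss of the SAGA core beyond their answer to depletion of the shared module, and which fell with both.

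The difference between the 2 effects passed the test for 5 genes. Their promoter windows (250 bases before to 50 bases after the annotated start, from RefSeq on GRCm38.p6) are shown here with that of Meg3, since the results below turn on these genes. The windows were searched on both strands for TATAAA, the core of the TATA box bound by TBP, and for CCAAT, the site bound by NF-Y, and capitals mark these matches. In the Arpc4 window, which holds neither, capitals instead mark the bases that also lie in the window of Tada3: the RefSeq starts of the 2 genes are 275 bases apart on opposite strands, and their windows share the 226 bases at chr6:113377863-113378088.
Arpc4, chr6:113377863-113378162, plus strand: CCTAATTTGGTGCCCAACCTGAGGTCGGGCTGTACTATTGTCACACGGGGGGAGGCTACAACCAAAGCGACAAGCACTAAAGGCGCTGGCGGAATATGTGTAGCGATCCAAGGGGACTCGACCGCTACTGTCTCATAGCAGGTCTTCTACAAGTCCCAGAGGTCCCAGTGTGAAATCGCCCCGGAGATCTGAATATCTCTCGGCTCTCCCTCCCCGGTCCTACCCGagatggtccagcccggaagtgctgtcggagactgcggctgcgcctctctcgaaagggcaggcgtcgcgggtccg
Slit2, chr5:47982905-47983204, plus strand: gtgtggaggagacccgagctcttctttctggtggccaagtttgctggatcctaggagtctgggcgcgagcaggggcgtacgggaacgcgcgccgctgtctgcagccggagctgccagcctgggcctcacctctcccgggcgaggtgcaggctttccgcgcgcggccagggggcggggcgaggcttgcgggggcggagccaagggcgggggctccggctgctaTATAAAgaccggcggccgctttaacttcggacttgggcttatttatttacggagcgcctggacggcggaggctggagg
Elmo1, chr13:20090257-20090556, plus strand: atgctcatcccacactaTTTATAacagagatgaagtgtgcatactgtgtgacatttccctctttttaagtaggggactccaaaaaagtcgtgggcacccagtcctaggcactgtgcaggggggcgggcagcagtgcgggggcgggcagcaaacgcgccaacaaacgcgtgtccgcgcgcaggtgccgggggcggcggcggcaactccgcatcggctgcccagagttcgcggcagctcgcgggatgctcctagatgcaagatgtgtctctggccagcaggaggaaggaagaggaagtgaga
Slc39a11, chr11:113650043-113650342, minus strand: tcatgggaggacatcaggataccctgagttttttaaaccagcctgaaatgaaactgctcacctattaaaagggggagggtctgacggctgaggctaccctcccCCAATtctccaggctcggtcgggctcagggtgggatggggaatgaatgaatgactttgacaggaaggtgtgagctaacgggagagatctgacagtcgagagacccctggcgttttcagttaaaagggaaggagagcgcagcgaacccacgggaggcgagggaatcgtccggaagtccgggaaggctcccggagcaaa
Kcnq1ot1, chr7:143296498-143296797, minus strand: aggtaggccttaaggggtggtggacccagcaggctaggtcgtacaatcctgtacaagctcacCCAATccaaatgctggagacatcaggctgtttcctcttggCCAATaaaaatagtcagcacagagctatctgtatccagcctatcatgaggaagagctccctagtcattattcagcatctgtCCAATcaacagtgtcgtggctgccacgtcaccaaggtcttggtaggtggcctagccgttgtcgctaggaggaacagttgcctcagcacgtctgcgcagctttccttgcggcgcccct
Meg3, chr12:109540746-109541045, plus strand: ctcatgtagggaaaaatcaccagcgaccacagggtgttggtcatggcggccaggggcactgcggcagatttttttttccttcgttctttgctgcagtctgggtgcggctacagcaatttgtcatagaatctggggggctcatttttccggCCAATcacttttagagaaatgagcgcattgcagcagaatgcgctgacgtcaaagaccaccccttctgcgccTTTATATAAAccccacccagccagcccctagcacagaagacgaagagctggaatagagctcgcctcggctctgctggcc
Slit2 and Elmo1 each held 1 TATAAA match, Slc39a11 held 1 CCAAT and Kcnq1ot1 held 3. The Elmo1 match lay on the opposite strand, near the upstream end of its window and far from the annotated start. The Meg3 window held 1 CCAAT and 2 overlapping matches to TATAAA, 1 on each strand. For Elmo1, Slc39a11 and Meg3, which have 2 windows each, the first is shown. Cyp7b1 is not among the 8 of 9 genes whose windows were matched.

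Under the test, 96 of the 14854 genes were lower in Supt7l-/- cells (0.646%) and 54 were higher (0.364%), at an adjusted p below 0.05 from edgeR's quasi-likelihood test. In AID-Tada3 cells 7 genes were lower (0.0471%) and 3 were higher (0.0202%). A single gene, Cyp7b1, was lower in both mutants (0.00673%), and a single gene, Adgrl2, was higher in both (0.00673%). The difference of effects lay below 0, that is toward less RNA with Supt7l loss than with Tada3 depletion, for Kcnq1ot1, Elmo1, Slit2 and Slc39a11 (4 genes, 0.0269%), and above 0 for Arpc4 alone (0.00673%). At an unadjusted p below 0.05, 1068 genes were lower (7.19%) and 1042 higher (7.01%) in Supt7l-/- cells, 681 lower (4.58%) and 659 higher (4.44%) in AID-Tada3 cells, and the difference lay below 0 for 792 (5.33%) and above 0 for 734 (4.94%). Of the genes lower in Supt7l-/- cells, 3 also had a difference past the threshold (Slit2, Elmo1 and Slc39a11), and of those lower in AID-Tada3 cells, 1 did (Arpc4). The remaining 92 genes called lower with Supt7l alone are therefore not shown to be particular to Supt7l, and for 20 of them the 95% interval of the difference included 0. The same plain and Tir1 and BirA lines are the WT of both projects, and the difference between these lines correlated across projects at 0.304 over genes. These counts leave that out. With a term for the WT line, 172 genes were lower with Supt7l, 418 with Tada3 and 38 with both, and 12 were higher with both. The difference lay below 0 for 295 and above 0 for 244. That term makes the plain line the WT level, so the counts for each mutant differ from those above in baseline as well as in spread. Effects of Tir1 and BirA in the clones, if they carry these, cannot be told apart there from effects of the mutant. With 2 libraries a group, the counts rested on single libraries. Without Supt7l-/- clone 1, 4 genes were called lower with Supt7l, and without clone 2, 9 were, while without either AID-Tada3 clone 33 were, and without any 1 of these 4 clones no difference was called. Without the plain WT or the Tir1 and BirA line of project 1, 292 and 290 were lower with Supt7l, and without the Tir1 and BirA line of project 2, 32 were. Without plain WT of project 2, 408 were lower with Supt7l and the difference lay below 0 for 205, and without the Tir1 and BirA line of project 1, 438 were lower with Tada3 and the difference lay below 0 for 488. The 5 differences kept their sign in all 8 fits that left out 1 library, and each was called in the 4 that left out a WT library and in none of the 4 that left out a mutant clone. In a fit of 14 libraries the differences of Kcnq1ot1, Slit2 and Elmo1 were not called, and without robust estimation that of Kcnq1ot1 alone was.

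**Figure D1:**
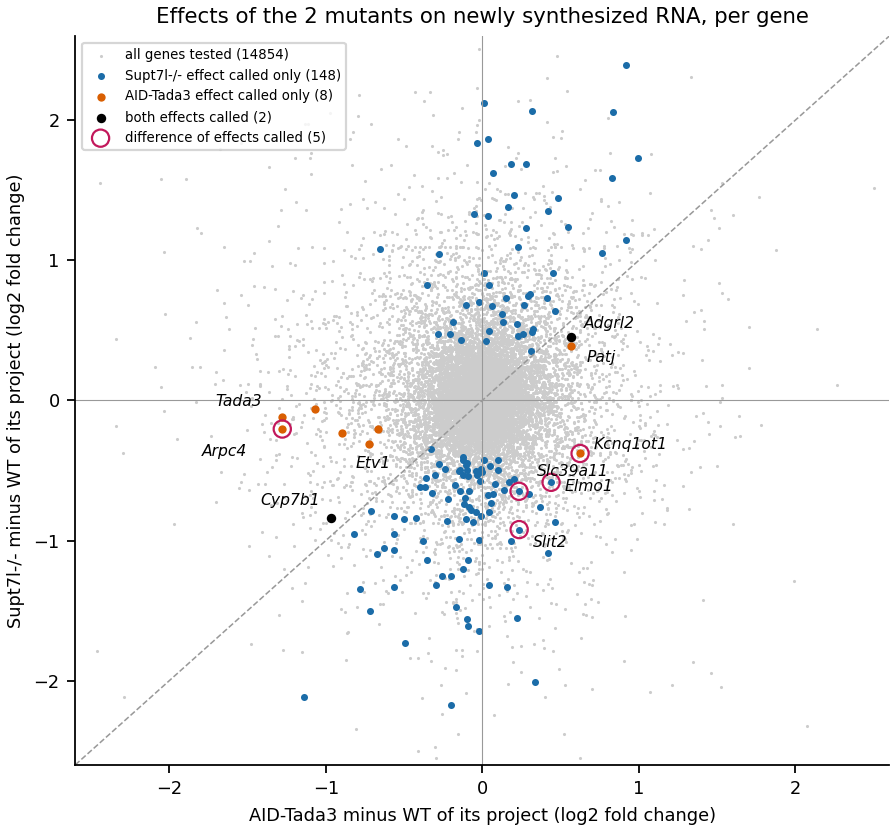
Each point is 1 of 14854 autosomal genes, with the AID-Tada3 effect on the x axis and the Supt7l-/- effect on the y axis (log2 fold changes against WT of the same project). The dashed line marks equal effects; 55 genes, 10 of them called, lie outside the axes at ±2.6. Blue points (148 genes with only the Supt7l-/- effect called) spread mainly along the vertical, and the 5 circled genes lie away from the dashed line.

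The 8 libraries held 8684575 to 15993561 mouse counts each (project 2 had the smaller ones). Replicates correlated at a Pearson r of 0.984 to 0.991 over all autosomal genes tested, on log2 raw counts. Levels are given in CPM (counts scaled to 1000000 a library, here on library sizes scaled by the trimmed mean of M values, TMM). Markers of ES cells summed to between 2710 and 3320 CPM in all 8 libraries, lowest in the 2 Supt7l-/- clones, with all 11 detected. Fibroblast markers (5 detected) summed to 7.02 and 7.04 CPM in the WT libraries of project 2, 1.81 and 1.68 CPM in the Supt7l-/- clones and 0.202 to 0.817 CPM in project 1. Markers of the 2-cell-like state (4 detected) summed to 3.51 and 3.57 CPM in the Supt7l-/- clones against 0.961 and 1.07 CPM in their WT. Those of trophectoderm (5 detected) summed to 18.9 and 18.2 CPM against 12.6 and 9.92 CPM, and those of primitive endoderm (7 detected) to 23.2 and 17.9 CPM against 13.3 and 11.6 CPM. All 3 sums were higher in both clones than in both WT libraries, but not every marker was. The trophectoderm rise lay mainly in Gata3 (13.93 and 13.02 CPM against 6.728 and 4.16 CPM), and Cdx2 was lower in both clones. The primitive endoderm rise lay mainly in Dab2 (14.72 and 10.71 CPM against 7.785 and 5.866 CPM). Gata4 was higher in both clones, but Gata6 and Pdgfra were below both WT libraries in clone 2. In a wider primitive endoderm list, 6 of 12 tested genes had Supt7l-/- effects below 0 (median -0.04). In project 1 the primitive endoderm sum was 8.91 to 16.8 CPM and the trophectoderm sum 9.66 to 15 CPM. Plain WT of project 1 had 10.99 CPM of Dab2 and 10.05 CPM of Gata3, against 3.495 and 4.934 CPM in its Tir1 and BirA line. WT libraries thus also varied in these markers. The part of these cell states in the results below was not tested.

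Tada3 RNA itself was measured at 31.2 and 23.9 CPM in WT and 12.2 and 10.5 CPM in AID-Tada3, so the groups did not overlap. This is a drop of 1.28 ± 0.17 (SE, n = 2 against 2 libraries) on the log2 scale (adjusted p = 0.014), although the degron acts on the protein. In Supt7l-/- cells Tada3 stood at 16.8 and 18.9 CPM against 16.8 and 22.1 CPM. Supt7l RNA was 8.83 and 14.1 CPM in the 2 Supt7l-/- clones against 13.8 and 14.3 CPM in WT: clone 1 was below both WT libraries and clone 2 lay between them. Its change of -0.29 ± 0.20 did not pass the test (adjusted p = 0.55), and where the knockout lesion lies relative to the counted exons is not given in the sources used here, so Supt7l RNA neither checks nor contradicts the knockout label.

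Among the listed subunits of SAGA and ATAC, with only Tada3 set aside, no RNA was called in either mutant or in the difference. The 29 tested genes changed by -0.41 to 0.42 on the log2 scale in Supt7l-/- cells and by -0.26 to 0.30 in AID-Tada3 cells, with a smallest adjusted p of 0.13. For 26 of the 29 the 95% interval of the difference lay within ±1 log2 unit. Kat2a, the main acetyltransferase of the module in ES cells, was measured at 13.2 and 13.9 CPM in WT and 9.74 and 10.6 CPM in Supt7l-/- (log2 change -0.41 ± 0.17), and at 14.7, 13.9, 14.2 and 17.2 CPM in the 4 libraries of project 1 (0.14 ± 0.15). Tada2b, the SAGA partner of Tada3, had a difference of 0.68 ± 0.26 and Taf5l, a SAGA core scaffold, one of -0.39 ± 0.15, neither past the threshold.

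Cyp7b1 (chr3:18071950-18243338), the oxysterol 7-alpha-hydroxylase of the alternative bile acid pathway, fell in both mutants. It was at 116 and 90.2 CPM in WT of project 1, 54.6 and 51.2 CPM in AID-Tada3, 117 and 117 CPM in WT of project 2 and 67.2 and 63.4 CPM in the Supt7l-/- clones. Every mutant clone was below both WT libraries of its project, which held for 5.92% of all genes tested in both projects, 19.8% in project 1 and 23.8% in project 2. The fall was 0.97 ± 0.11 on the log2 scale in AID-Tada3 cells (51.2% of WT, adjusted p = 0.0053) and 0.84 ± 0.11 in Supt7l-/- cells (55.8% of WT, adjusted p = 0.0047). The effects differed by 0.12, with a 95% interval from -0.21 to 0.46, so equal effects and a gap of either sign within these bounds were both compatible with the libraries. Without AID-Tada3 clone 1 or 2 the fall in AID-Tada3 was not called (adjusted p = 0.27 and 0.18), and without Supt7l-/- clone 1 or 2 that in Supt7l-/- was not (adjusted p = 0.099 and 0.13). Pkhd1, Actn2 and Fcrl5, genes that the authors' deposited table lists as lower in both mutants with Cyp7b1, Etv1 and Rpl39l, are named from that table. Fcrl5, an Fc receptor-like gene, was at 43.1 and 16.5 CPM in WT of project 1 and 5.65 and 5.21 CPM in AID-Tada3, and at 20.7 and 30.8 CPM in WT of project 2 and 7.70 and 7.14 CPM in Supt7l-/-. Its clones lay below both WT libraries in each project, and the 2 WT libraries of project 1 were 2.61-fold apart. Actn2, which encodes an alpha-actinin, went from 9.86 and 13.5 CPM to 4.51 and 4.84 CPM and from 16.3 and 24.4 CPM to 9.40 and 11.2 CPM, also without overlap. Neither gene was called in the reported fit: the adjusted p was 0.33 in AID-Tada3 and 0.25 in Supt7l-/- for Fcrl5, and 0.082 and 0.061 for Actn2. Pkhd1 was at 40.8 and 31.1 CPM in WT of project 1 and 14.0 and 12.6 CPM in AID-Tada3. In project 2 it was at 91.9 and 62.7 CPM in WT and 47.8 and 54.6 CPM in Supt7l-/-. It was not called either (adjusted p = 0.075 and 0.20). In the spike-in fit given below, Fcrl5, Actn2 and Pkhd1 were each called lower in both mutants.

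Adgrl2 (chr3:148815583-148990555), which encodes the adhesion receptor latrophilin 2, rose in both. Its RNA stood at 89.3 and 100 CPM in WT and 149 and 132 CPM in AID-Tada3, and at 101 and 103 CPM in WT and 139 and 141 CPM in Supt7l-/-, without overlap in either project. The log2 changes were 0.57 ± 0.09 (adjusted p = 0.039) and 0.45 ± 0.09 (adjusted p = 0.032), and they differed by -0.11 (95% interval -0.38 to 0.16). When libraries were scaled to the spike-in RNA instead, the Supt7l-/- effect was 0.09, and neither effect was called. Leaving out 1 library at a time, each of its 2 effects was called in 3 of 8 fits. Patj, a scaffold protein of the Crumbs polarity complex, named here after its values were seen, rose in AID-Tada3 cells from 62.8 and 63.7 CPM to 95.5 and 91.7 CPM (0.57 ± 0.08, adjusted p = 0.022). In Supt7l-/- cells it was at 74.9 and 78.2 CPM against 58.2 and 59.0 CPM (0.39 ± 0.09, adjusted p = 0.051), above both WT libraries but short of the threshold. With spike-in scaling the rise of Patj was not called either (0.40, adjusted p = 0.61), and its Supt7l-/- value was 0.03.

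The genes called with Supt7l were also read in the AID-Tada3 libraries. The reading is a description, since the joint fit takes the spread of each gene from all 8 libraries and so chose these genes partly by their spread in AID-Tada3. Of the 96 genes lower in Supt7l-/- cells, 67 had an AID-Tada3 effect below 0 (69.8%, against 50.1% of all genes tested), and 23 were lower in AID-Tada3 at an unadjusted p below 0.05 (24%, against 4.58% of all genes), while 5 were higher. Of the 54 genes higher in Supt7l-/- cells, 42 had an AID-Tada3 effect above 0 (77.8%) and 18 were higher at an unadjusted p below 0.05 (33.3%, against 4.44%), while 4 were lower. The median change of the 96 genes was -0.81 in Supt7l-/- cells, the values that chose them, and -0.10 in AID-Tada3 cells. Over all 14854 genes, which are not independent replicates, the 2 effects correlated at a Pearson r of 0.0206, and over the 8082 genes with at least 10 CPM at 0.0666.

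Some of the genes called with Supt7l had AID-Tada3 values of the same sign, and those given here were chosen after their values were seen, not from a list. Ntrk3, the receptor of neurotrophin 3, was at 60.6 and 72.0 CPM in WT and 30.9 and 37.6 CPM in Supt7l-/- (-0.95 ± 0.17, adjusted p = 0.027), and at 39.0 and 29.4 CPM in WT and 17 and 21.6 CPM in AID-Tada3 (-0.82 ± 0.17, adjusted p = 0.27). Grik4, a kainate receptor subunit, changed by -0.79 ± 0.16 in Supt7l-/- (adjusted p = 0.032), and its AID-Tada3 value was -0.71 ± 0.17 (adjusted p = 0.29). Tenm4, a teneurin adhesion protein with 691 CPM or more in every library, fell by 0.62 ± 0.09 in Supt7l-/- (adjusted p = 0.0096) and had -0.40 ± 0.09 in AID-Tada3 (adjusted p = 0.28). Cdh4 (R-cadherin), which fell by 0.84 ± 0.13 in Supt7l-/-, and Mkl2, a coactivator of serum response factor that fell by 0.35 ± 0.07, had AID-Tada3 values of -0.50 ± 0.13 and -0.33 ± 0.07. On the other side, Map7, a microtubule-associated protein, rose by 0.35 ± 0.08 in Supt7l-/- with 0.31 ± 0.08 in AID-Tada3, and Cdk14, a cyclin-dependent kinase of the Wnt pathway, rose by 1.05 ± 0.19 with 0.77 ± 0.19. None of these AID-Tada3 values passed the adjusted threshold.

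Slit2 (chr5:47983138-48307733), a secreted guidance cue that acts through Robo receptors, fell in Supt7l-/- cells only. It was at 89.7 and 104 CPM in WT and 47.3 and 54.9 CPM in the Supt7l-/- clones, against 71.9 and 84.6 CPM in WT and 86.8 and 97.3 CPM in AID-Tada3. The clones lay below both WT libraries in the former project and above both in the latter. Slit2 fell by 0.92 ± 0.12 with Supt7l loss (52.8% of WT, adjusted p = 0.0043), its AID-Tada3 effect was 0.24 ± 0.11 (adjusted p = 0.55), and the difference was -1.16 ± 0.16 (adjusted p = 0.021).

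Elmo1 (chr13:20090596-20608353), which with a Dock protein activates the GTPase Rac, had the same pattern. Its RNA stood at 63.5 and 74.3 CPM in WT and 46.8 and 45.2 CPM in Supt7l-/-, and at 55.4 and 59.5 CPM in WT and 74.9 and 80.8 CPM in AID-Tada3. Both pairs of groups were apart, in opposite directions. Elmo1 fell by 0.58 ± 0.10 with Supt7l loss (adjusted p = 0.022), the AID-Tada3 value was 0.44 ± 0.10 (adjusted p = 0.28), and the difference was -1.02 ± 0.14 (adjusted p = 0.021).

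Slc39a11 (chr11:113244853-113650079), a zinc transporter of the ZIP family, was at 292 and 318 CPM in WT and 177 and 212 CPM in Supt7l-/-, and at 253 and 260 CPM in WT and 305 and 299 CPM in AID-Tada3. It fell by 0.65 ± 0.09 with Supt7l loss (adjusted p = 0.0078), its AID-Tada3 value was 0.23 ± 0.09, above WT in both clones (adjusted p = 0.46), and the difference was -0.88 ± 0.13 (adjusted p = 0.027). Just outside the threshold for the difference stood Slco5a1, an organic anion transporter-like protein (-0.97 ± 0.16, adjusted p = 0.051), Thbs1 (thrombospondin 1; -3.01 ± 0.50, adjusted p = 0.057) and Dclk2, a doublecortin-like kinase (-0.81 ± 0.14, adjusted p = 0.066). Among the 8 libraries, Thbs1 was high in the WT libraries of project 2 only, at 12.9 and 15.4 CPM against 1.1 to 2.26 CPM in the other 6. Col1a2, Col12a1 and Acta2, genes typical of fibroblasts and smooth muscle, shared that pattern: in these 4 of the 96 genes lower with Supt7l, every other library was below the lower WT library of project 2 divided by 3. Col1a2 is itself 1 of the 5 fibroblast markers summed above. In the WT libraries of project 2 that sum was mostly Col1a2, at 3.08 and 4.91 CPM, and Col1a1, at 3.36 and 1.81 CPM, whereas Col3a1, Thy1 and Dcn were at 0.385 CPM or less in all 8 libraries. The part of such cells in these 4 calls was not tested.

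**Figure D2:**
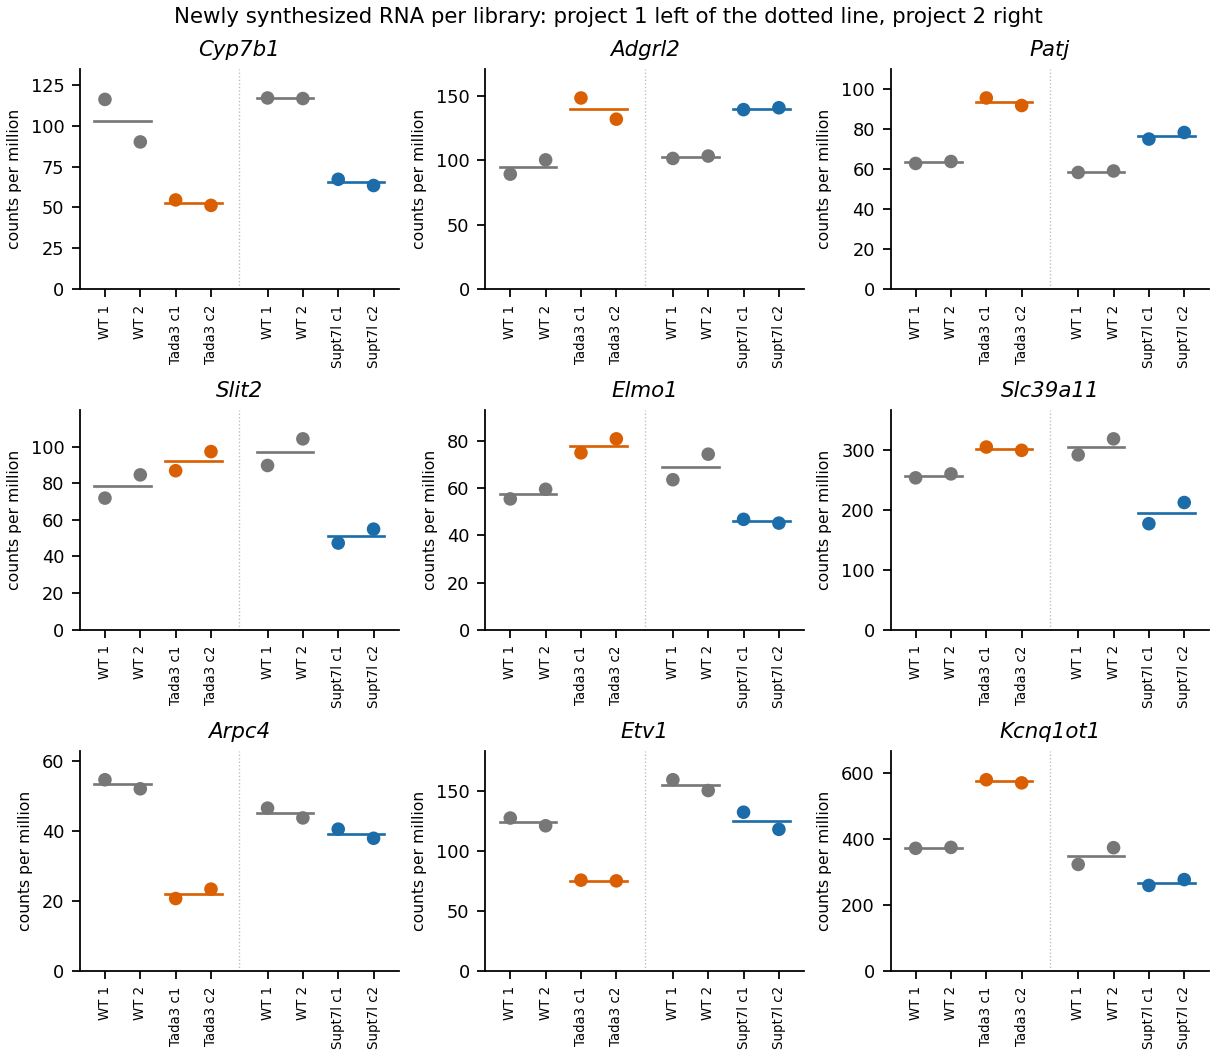
Newly synthesized RNA (CPM, y axis from 0) of 9 genes in each of the 8 libraries, with bars at the group means. WT 1 is the plain line and WT 2 the line with Tir1 and BirA. Cyp7b1 is lower and Adgrl2 higher in both mutants, Slit2, Elmo1 and Slc39a11 are lower in the Supt7l-/- clones and above their WT in the AID-Tada3 clones, and Arpc4 and Etv1 are lowest in the AID-Tada3 clones.

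Among the other genes that fell in Supt7l-/- cells, Suz12, Phc1, Uhrf1 and Sox21 are described here, chosen after their values were seen. Uhrf1 was the 1 called member of the list on DNA methylation (13 tested), and the lists on histone acetylation and reading (23 tested) and on histone variants and chaperones (15 tested) had none. Suz12, a core subunit of the histone methyltransferase complex PRC2, was at 710 and 909 CPM in WT and 564 and 581 CPM in Supt7l-/- (-0.50 ± 0.10, adjusted p = 0.043), with an AID-Tada3 value of -0.14 ± 0.10. Phc1, of the Polycomb complex PRC1, fell by 0.54 ± 0.11 (adjusted p = 0.042) and Uhrf1, which recruits the maintenance DNA methyltransferase, by 0.50 ± 0.11 (adjusted p = 0.041). Their AID-Tada3 values were -0.09 ± 0.11 and -0.15 ± 0.10. None of the 3 differences passed the adjusted threshold. Sox21, a transcription factor of the SoxB2 group, was at 23.2 and 27.1 CPM in WT and 16.9 and 15.2 CPM in Supt7l-/- (-0.65 ± 0.13, adjusted p = 0.041).

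Among the genes that rose in Supt7l-/- cells, Perp, an apoptosis effector downstream of p53, went from 5.29 and 2.77 CPM to 17 and 12.8 CPM. That is a rise of 1.87 ± 0.29 on the log2 scale (adjusted p = 0.012), against 0.04 ± 0.30 in AID-Tada3, where the 4 libraries lay between 3.08 and 4.52 CPM. Anxa3 and Setd7 are named after their values were seen. Anxa3, a calcium-binding annexin, rose from 10.3 and 6.83 CPM to 30.0 and 21.8 CPM (1.59 ± 0.21, adjusted p = 0.0047) and was at 9.89 and 9.87 CPM against 5.21 and 5.89 CPM in AID-Tada3 (0.83 ± 0.22, adjusted p = 0.31). Setd7, a lysine methyltransferase, rose by 1.33 ± 0.25 (adjusted p = 0.026) with an AID-Tada3 value of -0.05 ± 0.24. With spike-in scaling, 53 of these 54 genes had effects above 0, but 18 of them remained called.

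In AID-Tada3 cells 3 of the 7 genes that fell are neighbours: Tada3 itself, Arpc4 and Ttll3. Arpc4 (chr6:113378115-113390448), part of the Arp2/3 complex that nucleates branched actin, was at 54.5 and 51.9 CPM in WT and 20.6 and 23.3 CPM in AID-Tada3, a fall of 1.28 ± 0.11 (41.3% of WT, adjusted p = 0.00027). In Supt7l-/- cells it was at 40.4 and 37.8 CPM against 46.4 and 43.6 CPM (-0.20 ± 0.11, adjusted p = 0.42), and the difference was 1.07 ± 0.15 (adjusted p = 0.021, and 0.19 with spike-in scaling). The fall of Arpc4 in AID-Tada3 was called without any 1 of the 8 libraries. Arpc4 starts from the same stretch of promoter sequence as Tada3, in the opposite direction, as its sequence above shows. Ttll3 (chr6:113389260-113414587), a tubulin glycylase that begins within the annotated end of Arpc4, fell by 1.07 ± 0.16 (adjusted p = 0.030), with 24.2 and 18.5 CPM in WT and 11.4 and 9.01 CPM in the clones. Its difference, 1.01 ± 0.23, did not pass the threshold (adjusted p = 0.18), nor did that of Tada3, at 1.2 ± 0.25 (adjusted p = 0.15). The annotated spans of Arpc4 and Ttll3 overlap, so some reads cannot be assigned to either with certainty. Of the 12 tested genes that reach within 100 kb of Tada3, the other 9, Ogg1 and Brpf1 among them, were not called in either effect.

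**Figure D3:**
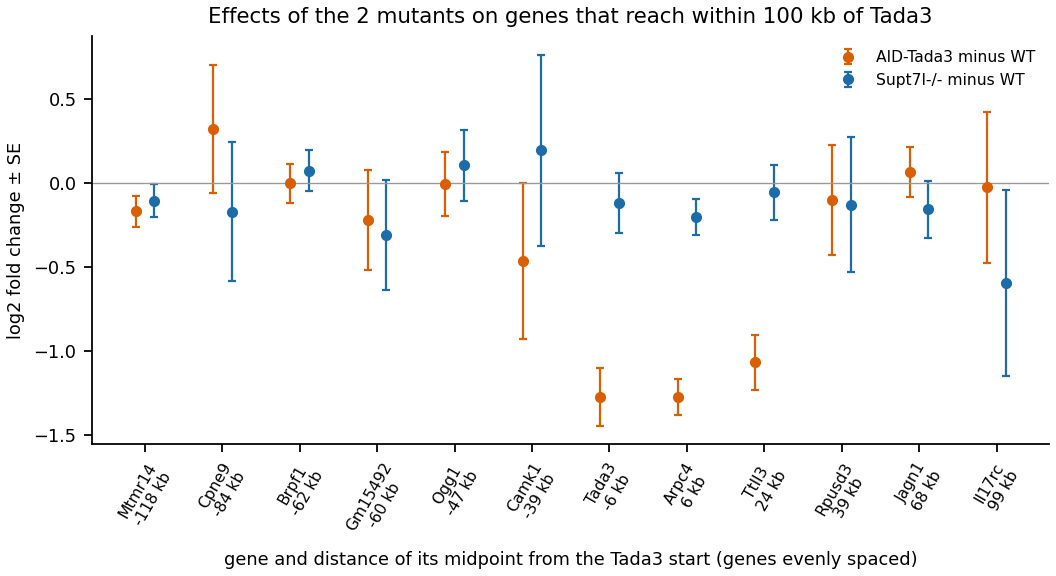
Effects (log2 fold change ± SE, 2 against 2 libraries) on the 12 tested genes near Tada3, ordered along the chromosome and labelled with the distance of each midpoint from the Tada3 start. Tada3, Arpc4 and Ttll3 are the only genes with AID-Tada3 effects below -1, and all 3 have Supt7l-/- effects between -0.20 and -0.06.

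The other genes that fell in AID-Tada3 cells were Cyp7b1, Etv1, Rpl39l and Platr16, of which the last 3 are named after their values were seen. Etv1 (chr12:38779380-38870484), an ETS transcription factor, was at 128 and 121 CPM in WT and 75.7 and 75.1 CPM in the clones, and fell by 0.72 ± 0.09 (adjusted p = 0.0053). In Supt7l-/- cells it was at 133 and 118 CPM against 160 and 151 CPM, also below both WT libraries (-0.31 ± 0.09, adjusted p = 0.12), and the difference of 0.41 ± 0.12 did not pass the threshold (adjusted p = 0.33). Rpl39l, a paralog of the ribosomal protein gene Rpl39, fell by 0.90 ± 0.11 (adjusted p = 0.0059) with a Supt7l-/- value of -0.23 ± 0.11. Since it is near-identical in sequence to Rpl39, the split of reads between them is uncertain. Platr16, a noncoding RNA of ES cells, fell by 0.67 ± 0.11 (adjusted p = 0.049) with a Supt7l-/- value of -0.21 ± 0.11.

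Kcnq1ot1, the long noncoding RNA that silences an imprinted domain from the paternal chromosome, had the smallest adjusted p of the difference. It is annotated at chr7:143203458-143296549, antisense to Kcnq1 and inside its span, and is named after its values were seen, since the naming rule took protein-coding genes only. Its RNA was at 371 and 374 CPM in WT and 579 and 570 CPM in AID-Tada3, and at 322 and 373 CPM in WT and 259 and 276 CPM in Supt7l-/-: above WT with Tada3 depletion and below WT with Supt7l loss, with no overlap. The rise in AID-Tada3 cells was 0.62 ± 0.09 (154% of WT, adjusted p = 0.014), the Supt7l-/- value was -0.38 ± 0.09 (76.9% of WT, adjusted p = 0.061), and the difference was -1.0 ± 0.12 (adjusted p = 0.011). With spike-in scaling the call changed sides: the AID-Tada3 value was 0.46 (adjusted p = 0.29) and the Supt7l-/- fall -0.73 (adjusted p = 0.0014), while the difference stayed called. Kcnq1 on the other strand was at 4.9 to 14.9 CPM, with effects of 0.44 ± 0.25 in Supt7l-/- and -0.34 ± 0.25 in AID-Tada3, neither called. The library kit keeps strand, but the strand setting of the counting is not given in the sources used here, so reads of this pair may be mixed.

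The Meg3, Rian and Mirg transcripts of the Dlk1-Dio3 imprinted domain, noncoding RNAs made from the maternal chromosome, had their lowest levels in the 2 Supt7l-/- clones. Meg3 (chr12:109541001-109571726) was at 10.9 and 8.61 CPM in the 2 clones against 55.1 CPM in plain WT and 196 CPM in WT with Tir1 and BirA. In project 1 it was at 134 and 170 CPM in WT and 167 and 152 CPM in AID-Tada3. Rian followed the same order, with 29.0 and 25.7 CPM in Supt7l-/-, 156 and 629 CPM in its WT, and 438, 526, 639 and 562 CPM in project 1, as did Mirg at 8.04 and 7.67 CPM against 40.2 and 189 CPM. The Supt7l-/- clones were thus below every other library for all 3, but the 2 WT libraries of project 2 were themselves 3.55-fold apart for Meg3. None of the 3 passed the test: the Supt7l-/- value of Meg3 was -3.68 ± 0.78 (adjusted p = 0.17), that of Rian -3.84 (adjusted p = 0.16), and the difference for Rian was -4.16 (adjusted p = 0.38). Without plain WT the Supt7l-/- value of Meg3 was -4.33 (adjusted p = 3.27e-08), and without the other WT library it was -2.51 (adjusted p = 2.89e-05), so it was called with either WT library alone and not with both. Across the region from Meg3 to Mirg (chr12:109541001-109749460), which holds 55 genes, most of them small RNAs within these hosts, 24 were tested, and both clones lay below both WT libraries in 22 of them (23.8% of all genes tested did so). Of the 24, 1 was called lower in Supt7l-/- cells, Gm22205, a small nucleolar RNA gene with less than 2 CPM in every library (-4.42 ± 0.90, adjusted p = 0.038). All 55 genes of the region, tested or not, summed to 58.5 and 52.1 CPM in Supt7l-/- and to 314 and 1260 CPM in its WT. In project 1 they summed to 854 and 1060 CPM in WT and 1210 and 1060 CPM in AID-Tada3. Small RNA genes share reads with their host, so they are not independent of it. Wdr25, a protein-coding neighbour, was at 69.98 to 92.3 CPM in all 8 libraries.

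**Figure D4:**
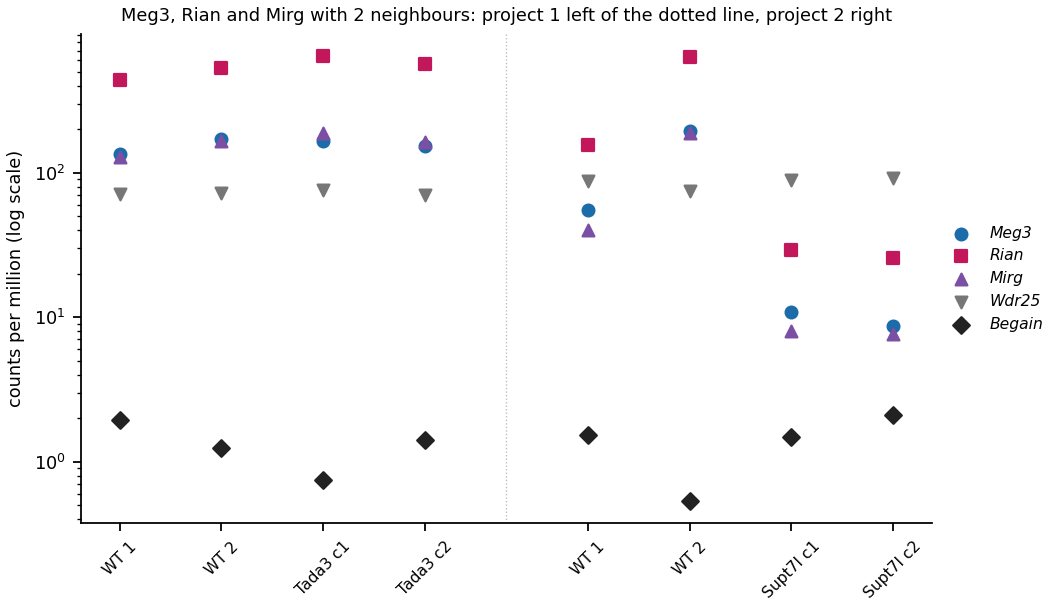
Newly synthesized RNA (CPM, log scale) of Meg3, Rian, Mirg and the neighbouring genes Wdr25 and Begain in each library. The Supt7l-/- clones have the lowest values of the 3 noncoding RNAs (25.7 to 29.0 CPM for Rian), while the 2 WT libraries of project 2 are apart (156 and 629 CPM for Rian) and Wdr25 is level.

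Lists of genes for 36 pathways, complexes and cell states were read in both effects, and in 26 of the 34 lists with at least 5 tested members none was called in either effect or in the difference. Leaving the imprinted genes aside, the smallest adjusted p of the difference in the 33 other lists with at least 5 tested members was 0.153. The lists are described here by their counts and medians, beside medians over all genes tested of 0.00051 in Supt7l-/- and -0.00064 in AID-Tada3 cells.

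Among the lists with at least 10 tested genes, p53 targets and Wnt targets stood at the ends of the order of median differences. Of 29 p53 targets, Perp and Pmaip1, which encodes the apoptosis protein Noxa, rose in Supt7l-/- cells, and none was called in AID-Tada3 cells or in the difference. The median of the list was 0.32 in Supt7l-/- and -0.10 in AID-Tada3, with 24 of 29 above 0 in the former and 6 in the latter. At an unadjusted p below 0.05, 15 were higher in Supt7l-/- cells (7.01% of all genes were), and 12 had a difference above 0 (4.94% of all genes). Mdm2, the ubiquitin ligase that restrains p53, was at 251 and 226 CPM in WT and 331 and 287 CPM in Supt7l-/- (0.37 ± 0.10), against 293, 264, 256 and 249 CPM in project 1 (-0.14). Ephx1, an epoxide hydrolase, had the smallest p of the difference in the list (0.98, adjusted p = 0.15). With spike-in scaling the Supt7l-/- median of the list was -0.07, with 12 of 29 above 0, and the median difference was 0.26 instead of 0.46, so that the sign of the Supt7l-/- median, but not that of the difference, depends on the scaling.

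Of 17 targets of Wnt signalling, which CHIR99021 activates in this medium, none was called in either effect or in the difference. Their median was -0.30 in Supt7l-/- cells (15 of 17 below 0) and 0.37 in AID-Tada3 cells (16 of 17 above 0). The difference lay below 0 at an unadjusted p below 0.05 in 9 (5.33% of all genes), with a median of -0.70. Cdx2, a caudal homeobox factor, was at 1.76 and 3.70 CPM in WT and 6.87 and 6.68 CPM in AID-Tada3, and at 2.88 and 4.05 CPM in WT and 1.70 and 2.31 CPM in Supt7l-/- (difference -2.09, adjusted p = 0.18). Lef1, a nuclear partner of beta-catenin, was at 9.17 and 19.6 CPM in WT and 23.6 and 21.4 CPM in AID-Tada3, and at 17.7 and 17 CPM in WT and 5.43 and 8.61 CPM in Supt7l-/- (difference -1.95 ± 0.51, adjusted p = 0.34). With spike-in scaling the signs of both medians stayed as they were (-0.65 and 0.22). Then 4 of the 17 differences were called below 0 (1.09% of all genes were), that of Lef1 among them (-2.15, adjusted p = 1.3e-05). The median difference over all genes was -0.19 in that fit, which also estimated spread otherwise, as given below.

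**Figure D5:**
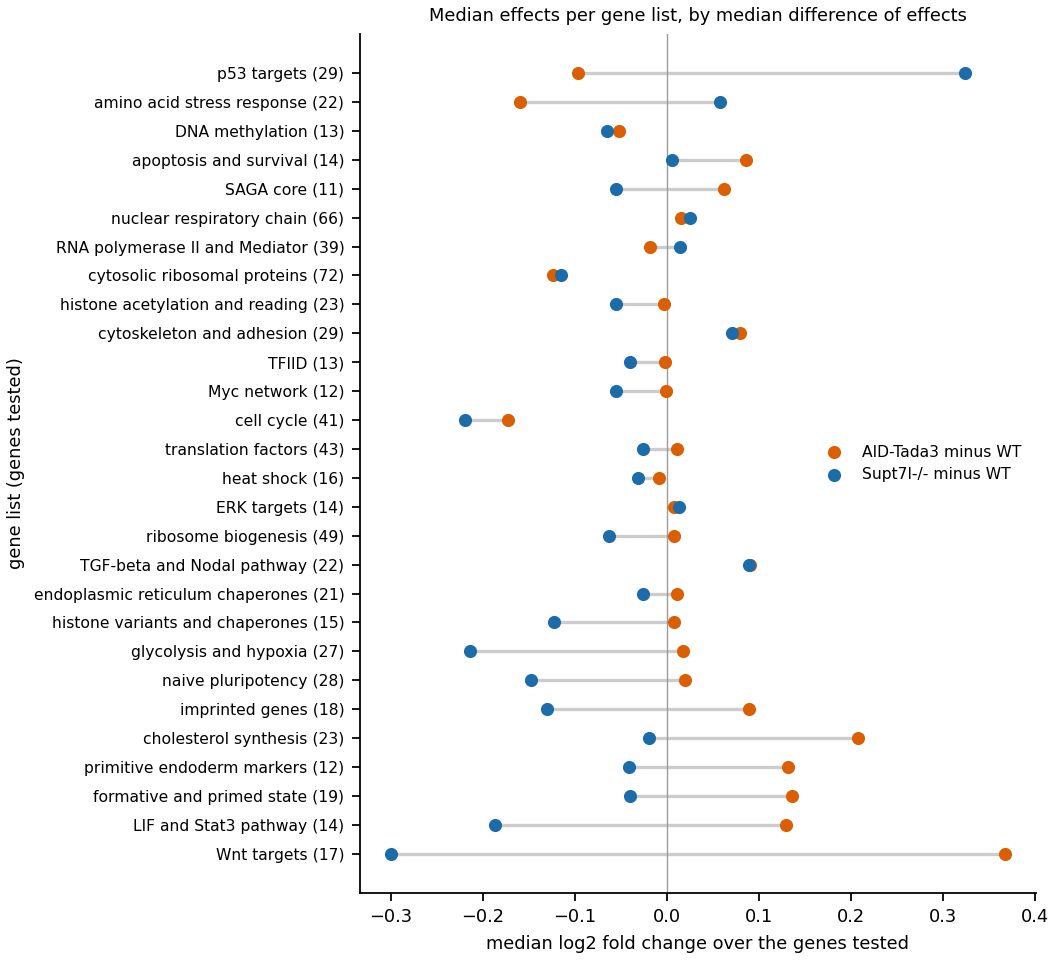
Median log2 fold change of each gene list with at least 10 tested genes in AID-Tada3 (orange) and Supt7l-/- (blue) cells against WT, ordered by the median difference of effects. The p53 targets (0.32 against -0.10) lie at the top and the Wnt targets (-0.30 against 0.37) at the bottom, while cell cycle and ribosomal protein genes have alike medians below 0 in both.

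Cell cycle genes had medians below 0 in both mutants. Of 41, 38 had Supt7l-/- effects below 0 (median -0.22) and 34 had AID-Tada3 effects below 0 (median -0.17), and 16 and 15 were lower at an unadjusted p below 0.05 (7.19% and 4.58% of all genes were), though none passed the adjusted threshold. The median difference was -0.04. With spike-in scaling, 20 of the 41 were called lower in Supt7l-/- cells (8.35% of all genes were) and 0 in AID-Tada3 cells. Cdk1, the mitotic kinase, was at 158 and 162 CPM in WT and 117 and 133 CPM in AID-Tada3 (-0.35), and at 144 and 158 CPM in WT and 132 and 120 CPM in Supt7l-/- (-0.26). Top2a, the topoisomerase of dividing cells, had -0.26 and -0.32. Ccnd3, a D-type cyclin, was the member with the smallest p of the difference (-0.68): 40.8 and 47.7 CPM in WT and 32.3 and 29.3 CPM in Supt7l-/-, against 32.9 and 41.1 CPM in WT and 42.4 and 40.2 CPM in AID-Tada3. Cytosolic ribosomal protein genes (72 tested, none called) had medians of -0.12 in both mutants, with 62 and 56 below 0. With spike-in scaling, 13 of the 72 were called lower in Supt7l-/- cells.

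Naive pluripotency genes (28 tested, none called) had a median of -0.15 in Supt7l-/- cells, with 8 lower and 2 higher at an unadjusted p below 0.05 (7.19% and 7.01% of all genes were). In AID-Tada3 cells the median was 0.02, with none lower at that threshold. With spike-in scaling, 10 of the 28 were called lower in Supt7l-/- cells (8.35% of all genes were). The difference was then called below 0 for 3 of them (1.09% of all genes). Nr5a2, a nuclear receptor that activates Pou5f1, was at 844 and 893 CPM in WT and 729 and 724 CPM in Supt7l-/- (-0.26 ± 0.09), and at 963 and 1054 CPM in WT and 1170 and 1050 CPM in AID-Tada3 (0.14 ± 0.09). Otx2, a factor of the formative state, was at 3.17 and 3.41 CPM in WT and 1.58 and 1.26 CPM in Supt7l-/- (-1.21 ± 0.30, adjusted p = 0.086), and its AID-Tada3 value was 0.19 ± 0.20. Genes of the LIF and Stat3 pathway (14 tested, none called) had medians of -0.19 and 0.13, and those of cholesterol synthesis (23 tested, none called) -0.02 and 0.21, with 6 of the latter higher in AID-Tada3 at an unadjusted p below 0.05 (4.44% of all genes). With spike-in scaling the AID-Tada3 median was -0.03 for the LIF and Stat3 list and 0.03 for the cholesterol list, so these medians depend on the scaling. Sqle, squalene epoxidase, was the cholesterol gene with the smallest p of the difference (-0.56 ± 0.17, adjusted p = 0.33).

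The scaling set the level from which these effects are counted. Mouse RNA per spike-in RNA was 78% of WT in Supt7l-/- cells and 89.2% of WT in AID-Tada3 cells, with exact permutation p-values of 0.333 and 0.667 (two-sided), where 2 against 2 libraries cannot go below 0.333. Scaled to the spike-in, the median gene was lower by 0.36 on the log2 scale in Supt7l-/- and by 0.17 in AID-Tada3, and 1241 genes (8.35%) and 133 genes (0.895%) were called lower. The number lower in both then rose from 1 to 35 (0.236%). These counts do not follow from the scaling alone, since the spike-in fit also estimated spread otherwise. Its median prior degrees of freedom were infinite, against 9.19 with TMM. For the median gene it thus used the trend over all genes and not the gene's own spread. The Supt7l-/- adjusted p of Fcrl5 was 0.25 with TMM and 8.7e-12 in the spike-in fit. Cyp7b1, Etv1, Fcrl5, Actn2, Pkhd1, Platr16, Ntrk3, Grik4 and Cdh4 were among the 35. In 17 of the 35 the WT libraries of project 1 were over 1.5-fold apart. Of the 6 genes lower in both in the authors' deposited table, only Rpl39l was not among the 35 (Supt7l-/- adjusted p = 0.061 in the spike-in fit). In the authors' deposited table, 704 genes were lower and 4 higher with Supt7l loss, 13 lower and 1 higher with Tada3 depletion, and 6 lower in both. Its Supt7l-/- value for Adgrl2 was 0.069, against 0.095 in the spike-in fit and 0.453 with TMM. For Cyp7b1 the 3 values were -1.09, -1.20 and -0.84, and for Fcrl5 -1.78, -2.16 and -1.79. The first 2 genes thus lay nearer the spike-in fit, and Fcrl5 nearer TMM. With spike-in scaling the difference below 0 was called for 162 genes (1.09%) and above 0 for 28 (0.189%), from a median difference of -0.19.

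Over all autosomal genes tested with a promoter window (10693), TATAAA lay in 747 (6.99%), and CCAAT in 38.2%. TATAAA was found in 7 of the 68 windows of genes lower in Supt7l-/- cells (10.3%) and in 7 of the 41 of genes higher in them (17.1%). CCAAT was found in 39.7% and 24.4%. Of the 5 genes with a called difference, 2 held TATAAA (Slit2 and Elmo1) and 2 held CCAAT (Slc39a11 and Kcnq1ot1). A match is a stretch of letters in a window and not a measured site.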

How the data were processed

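Raw read counts per gene were deposited by the authors in 1 table per project. Per the submitters' processing notes, reads were trimmed with cutadapt 1.10, aligned with STAR 2.5.3a (mm10) and counted with HTSeq 0.6.1p1, and log2 fold changes and p-values in the authors' deposited comparisons came from DESeq2 1.16.1. Whether counting used strand is not given in the sources used here. Counts of genes in both tables were fitted with edgeR 4.0.16 in R 4.3.3: 8 libraries, 4 group means, filterByExpr (minimum count 10), TMM scaling, robust quasi-likelihood tests and Benjamini-Hochberg adjustment over the 15380 genes tested on all chromosomes, with a threshold of 0.05. The text counts autosomal genes. Each effect was taken within its project, since the projects differ in depth and spike-in species (Drosophila in project 1, S. pombe in project 2). A value after ± is a standard error, derived from the effect and its test statistic. P-values and standard errors rest on the spread within all 4 groups together, drawn toward the trend over genes (4 residual and a median of 9.19 prior degrees of freedom). Within a group, that spread is between 2 clones or 2 WT lines, which are not replicates of 1 line.

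The members and gene lists were chosen with earlier results of these data known. Named genes were autosomal and protein-coding, with a full symbol and a mean of at least 1 CPM. They had the same sign with spike-in scaling and clones beyond both WT libraries, up to 12 per class by effect. Others came from the gene lists or the authors' deposited table, or were named after their values were seen. Clone numbers pair nothing across lines. The test was tried on simulated data. Total RNA libraries were not used here. The ATAC mutants entered only the fit of 14 libraries, as an alternative and for the closing values. Alternatives were spike-in and median-ratio scaling, no filter and a minimum of 50 counts, 14 libraries in 1 fit, each project alone, thinned counts, a replicate block, a WT line term, DESeq2 1.42.0, and leaving out each library. An edgeR fit without robust estimation was chosen after seeing the data.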

Additional observations from a re-analysis of the deposited data

Results flagged for a closer look

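In 5 genes the effects of the 2 mutants, each against WT of its own project, differed by the test of the difference itself (edgeR's quasi-likelihood test, adjusted p below 0.05, 2 libraries in each of 4 groups). Kcnq1ot1 differed by -1.0 on the log2 scale, above WT in both AID-Tada3 clones and below WT in both Supt7l-/- clones. The difference was -1.16 for Slit2, -1.02 for Elmo1 and -0.883 for Slc39a11, all 3 lower with Supt7l loss and above WT in both AID-Tada3 clones. Arpc4, the neighbour of Tada3, differed by 1.07, with its fall in the AID-Tada3 clones.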

How the results depend on the processing

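Counts of called genes moved most. They are given here as lower and higher with Supt7l, lower and higher with Tada3, lower and higher in both, difference below and above 0, then the Supt7l-lower and Tada3-lower genes with a called difference. As reported, the counts were 96, 54, 7, 3, 1, 1, 4, 1, 3 and 1. Spike-in scaling, in a fit that also estimated spread otherwise, gave 1241, 30, 133, 9, 35, 0, 162, 28, 149 and 15. No filter on low counts gave 422, 344, 221, 169, 48, 24, 269, 196, 180 and 58. A joint fit of 14 libraries gave 54, 32, 11, 0, 1, 0, 2, 1, 2 and 1. A WT line term, which takes plain WT as the WT level, gave 172, 101, 418, 399, 38, 12, 295, 244, 91 and 134. DESeq2 gave 180, 91, 23, 6, 6, 1, 50, 18, 44 and 3. Without robust estimation, added after seeing the data, edgeR gave 81, 34, 6, 2, 1, 0, 1, 0, 0 and 0. Each project alone gave 156, 90, 4, 0, 0 and 0 for the first 6. Thinning project 1 to the depth of project 2 gave 103, 58, 5, 3, 1, 2, 6, 1, 6 and 1. Size factors of DESeq2 gave 95, 53, 6, 3, 1, 1, 5, 1, 4 and 1, and a minimum of 50 counts 68, 38, 5, 2, 1, 1, 4, 1, 3 and 1. At an unadjusted p below 0.05 the reported fit had 1068, 1042, 681 and 659 genes for the first 4 counts and 792 and 734 for the difference.

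The replicate block (clone number and WT line), which takes clone 1 and plain WT as the levels compared, gave 49, 24, 153, 140, 12, 3, 174, 134, 28 and 60. The clone numbers belong to different lines and share only a number: clone 1 minus clone 2 of the 2 mutants correlated at 0.17 across genes, and the WT lines at 0.304 across projects.

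Leaving out each library in turn, the 10 counts ranged over 4 to 408, 1 to 348, 1 to 438, 0 to 475, 0 to 48, 0 to 19, 0 to 488, 0 to 365, 0 to 180 and 0 to 209. The mouse to spike-in ratio (log2) was -0.164 for AID-Tada3, with a range of -0.265 to -0.0634, and -0.37 for Supt7l-/-, with a range of -0.551 to -0.189. It was -0.175 and -0.399 from summed counts and -0.153 and -0.374 with no minimum count.

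Of 561 single-gene values under the other alternatives, 462 kept direction and side of the threshold, 38 fell short of it, 58 newly passed it and 3 changed sign, and of 424 that left out a library, 311, 76, 35 and 2 did. The 5 sign changes were of uncalled values: the difference for Cyp7b1 was -0.0604 with spike-in scaling and -0.0749 to 0.291 when libraries were left out, lowest without WT replicate 1 of project 1. The Tada3 effect on Supt7l was -0.0534 with spike-in scaling and -0.0887 with the replicate block. The Supt7l effect on Tada3 ranged over -0.308 to 0.0823, highest without WT replicate 2 of project 2. The cause of these shifts was not tested. A lone library in a group is assumed to vary like the others. Depth (8684575 to 15993561 counts) limits genes near 1 CPM to large changes.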

Other observations

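Plagl1, an imprinted zinc-finger gene, was at 39.9 and 28.2 CPM in Supt7l-/- against 87.4 and 236 CPM in WT, and at 102 and 227 CPM in WT and 162 and 183 CPM in AID-Tada3. The plain WT library was the lower one in both projects. Its Supt7l-/- value was -2.25 on the log2 scale and was not called. Asns, the asparagine synthetase of the amino acid stress response, was at 412 and 508 CPM in WT and 364 and 333 CPM in Supt7l-/- (-0.40 ± 0.10, adjusted p = 0.082), with an AID-Tada3 value of 0.05 ± 0.10.

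The same genes were read in the 2 ATAC mutants, AID-Yeats2, which shares its WT libraries with Supt7l-/-, and AID-Zzz3 with the WT of project 3. Of the genes read, Slco5a1 was the only one called: it was lower in AID-Yeats2, at 33 and 35.6 CPM (-0.40, adjusted p = 0.046), and at 36.2 and 33.2 CPM in AID-Zzz3 against 43 and 42.9 CPM (adjusted p = 0.12). Cyp7b1 was at 103 and 114 CPM in AID-Yeats2 and at 85.2 and 103 CPM in AID-Zzz3 against 95 and 128 CPM. Slc39a11 was at 305 and 288 CPM and at 254 and 272 CPM against 277 and 318 CPM. Arpc4 stood at 41.6 and 40.8 CPM and at 36.3 and 36.7 CPM against 39.4 and 44.7 CPM. Etv1 was at 175 and 175 CPM and at 242 and 210 CPM against 202 and 228 CPM. Thbs1 was high in AID-Yeats2 clone 1, at 19.5 CPM, but at 1.71 CPM in clone 2. In AID-Zzz3 it was at 1.08 and 0.922 CPM against 0.432 and 0.471 CPM. Kcnq1ot1 was at 396 and 478 CPM in AID-Yeats2, and in AID-Zzz3 at 527 and 272 CPM against 281 and 414 CPM. Meg3 was at 235 and 223 CPM in AID-Yeats2, 286 and 141 CPM in AID-Zzz3 and 37.5 and 174 CPM in WT of project 3, where the plain WT library was again the lower one.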
